A study of Rattus norvegicus with 8 samples.

Results

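This account covers 9 genes of the oxidant and electrophile response in adult rat liver: the transcription factor gene Nfe2l2, which encodes NRF2, its sensor Keap1, the NRF2 targets Gclc, Gclm, Hmox1, Txnrd1 and Srxn1, and the epoxide hydrolase genes Ephx1 and Ephx2. They were taken by name. A gene was read where the RefSeq accession of an array reading matched its symbol, and the reading with the highest mean Cy5 median signal stood for it. All 9 had a matched reading, 8 of them above background, among 10004 named genes that were measured.

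Livers came from male Sprague-Dawley rats of 78 to 86 days. Control dams had received corn oil and AhR dams a mixture that activates the aryl hydrocarbon receptor (AhR), made of non-ortho-PCBs, polychlorinated dioxins and furans at 1.8 ng of TCDD toxic equivalents per kg per day. Dosing ran from gestation day 0 to postnatal day 20, so no compound had been given for weeks before sampling. Litters of these groups stayed with their own mothers. Each group had 4 arrays, and each array held liver RNA of 2 rats pooled at random, so that 8 male offspring stood behind a group. Which pups were littermates is not stated, and p-values measure only the spread between pools. In bulk liver, fewer cells of a type and less RNA per cell cannot be told apart.

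NRF2 is held by KEAP1, which presents it to a CUL3 ubiquitin ligase for degradation. Oxidants and electrophiles modify cysteines of KEAP1, NRF2 accumulates, pairs with a small MAF protein and binds antioxidant response elements (AREs) of genes for glutathione synthesis, thioredoxin recycling, heme breakdown and detoxication. Several such genes, Nqo1 among them, are targets of both NRF2 and the AhR. Epoxide hydrolases add water to reactive epoxides: the microsomal enzyme EPHX1 clears epoxides that P450 enzymes make from foreign compounds, and the soluble enzyme EPHX2 turns epoxy fatty acids into diols.

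The stretches around the start sites were searched for AREs, the element that NRF2 binds, and for the sites of AP-1 and AhR. RefSeq's table (build GRCr8) held 9 start sites for 7 of the genes, with 250 bases before and 50 after each start; Hmox1 and Ephx2 are not in it. The ARE core TGACNNNGC, read on both strands, occurred at 4 of the 9 starts, and in 12.1% of all 33469 windows of the same length. The AP-1 type site TGANTCA, which can overlap an ARE, occurred at 2 of the 9 and in 7.33% of all. The AhR-type site TNGCGTG occurred at 0 of the 9 and in 4.89% of all. The matches upstream of a start are shown with 12 bases on either side, 5′ to 3′ on the strand of the gene, with the match in capitals.
Ephx1, ARE core on the opposite strand: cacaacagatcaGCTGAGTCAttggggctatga
Ephx1, AP-1 type: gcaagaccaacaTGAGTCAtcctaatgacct
Srxn1, AP-1 type: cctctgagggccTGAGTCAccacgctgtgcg
Gclm, ARE core on the opposite strand: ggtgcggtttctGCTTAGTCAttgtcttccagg
Txnrd1, ARE core on the opposite strand: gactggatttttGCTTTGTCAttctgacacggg

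Coordinates are those of the whole stretch printed, flanks included, and distances are from the first base of the match to the start. The Ephx1 ARE stretch is chr13:95263154-95263186 (minus strand); its match began 57 bases before the downstream of the 2 listed starts, and a TGANTCA match lay inside it. The other Ephx1 match began 209 bases before that start, in the stretch chr13:95263308-95263338. The Srxn1 match began 62 bases before the start (stretch chr3:161064738-161064768, plus strand) and the Gclm match 172 (stretch chr2:213031951-213031983, plus strand). The Txnrd1 match began 78 bases before the downstream of its 2 starts (stretch chr7:22755962-22755994, minus strand). A second Srxn1 TGANTCA match began 5 bases before the start, and the Nfe2l2 ARE match lay 38 bases after the Nfe2l2 start, so neither is printed. Such a match is a description of letters, not a binding site.

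Values are log2 ratios of liver RNA (Cy5) over a common reference RNA (Cy3), so that 0 is equal brightness and a difference of 1 is 2-fold. The labels describe the reference as RNA of 14 rat cell lines, yet 99.0% of the named genes had Cy5 within 2-fold of Cy3. Alb, the albumin gene, was about as bright in Cy3 (mean log2 signal 17.27) as in liver (17.21). These are values after within-array loess, which centres the ratios of an array at each brightness, and not the scanned signals. In the mean over 8 arrays each of the 8 measured members lay within 1.5-fold of the reference, while single arrays of Ephx1, Hmox1 and Ephx2 lay beyond it. No dyes were swapped, so these levels are open to dye bias, which is the same in both groups. Between 56.2% and 62.0% of the probes on an array were well above background in Cy5. The albumin signal and the hepatocyte marker list, with 8 of 8 markers measured, are of the kind seen in liver. They do not set Cy5 apart from the reference, where albumin was about as bright. The mean ratio of the hepatocyte list over the reference was only 0.06 to 0.32 by array.

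None of the 8 measured members passed the test between AhR and control (limma, Benjamini-Hochberg adjusted p of 1.00 for each), and limma called 0 of 17859 probes, or 0%. At an unadjusted p under 0.05 there was 1 member, Ephx2, against 1.61% of all probes. Of the 8, the AhR mean was above the control mean for 4 and below it for 4; the median of the 8 differences was 0.00 on the log2 scale, and that over all named genes -0.00. The soluble epoxide hydrolase gene Ephx2 had the largest difference, 1.31-fold lower in AhR, and Gclc, the catalytic subunit gene of glutathione synthesis, the next, 1.19-fold higher. The 95% intervals lay within 1.5-fold in either direction for 5 of the 8 members and within 2-fold for all 8, in the ratios as processed.

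**Figure D1:**
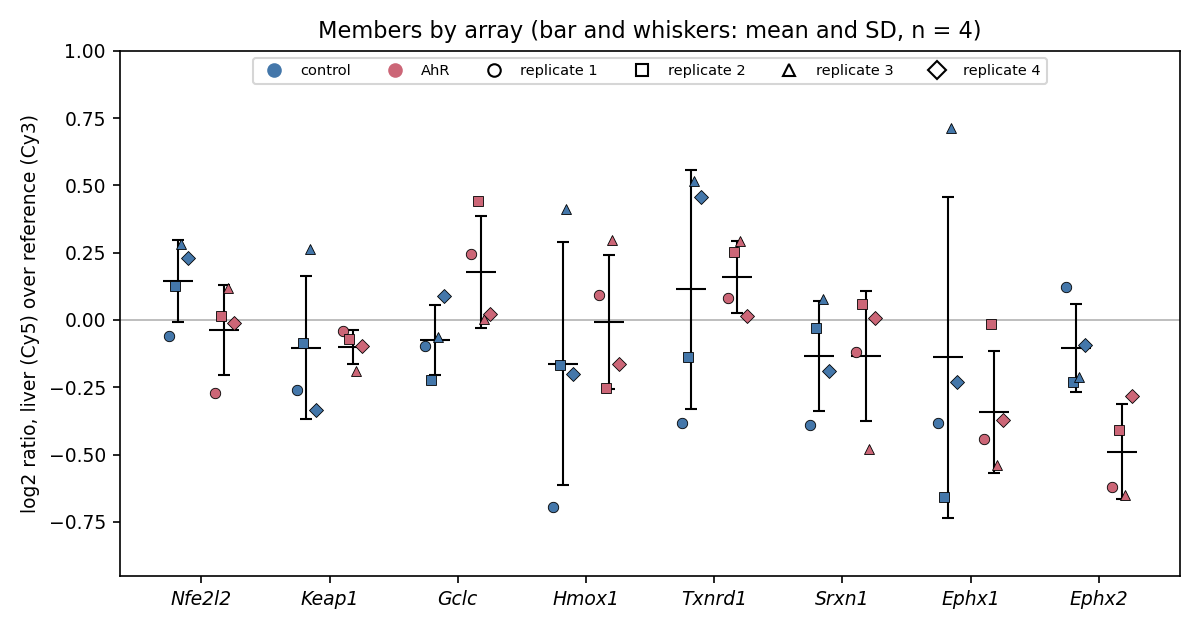
Log2 ratio of liver (Cy5) over reference (Cy3) on the y axis for the 8 measured members, with control arrays in blue, AhR arrays in red, a symbol for each replicate number, and the mean ± SD of 4 arrays as bar and whiskers. The groups overlap for every member shown except Ephx2, where all 4 AhR arrays lie below all 4 control arrays, and the control replicate 3 triangle is the highest point of Ephx1 at 0.71.

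**Figure D2:**
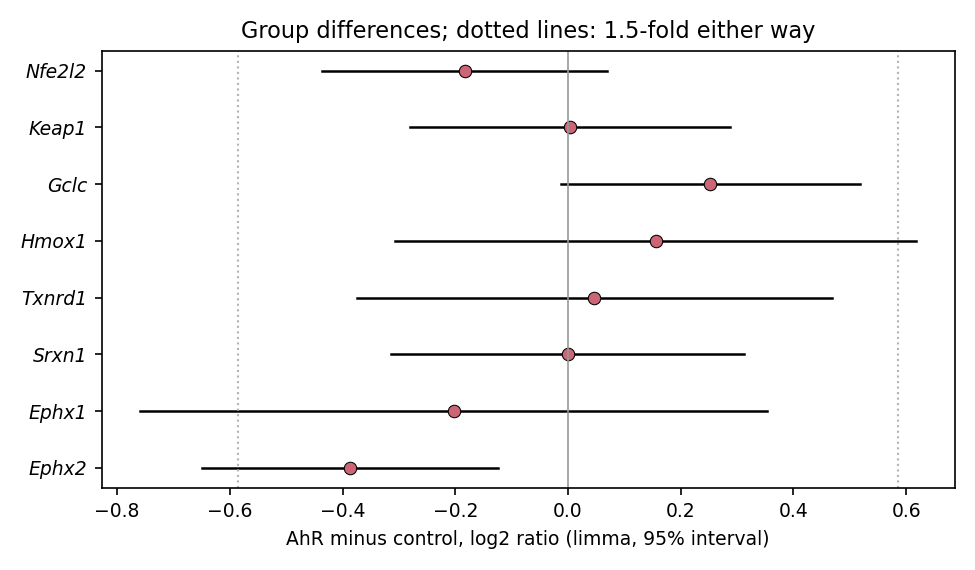
AhR minus control in log2 ratio (x axis) for each measured member, as the limma estimate with its 95% interval; dotted lines mark 1.5-fold in either direction. The Ephx2 interval, -0.65 to -0.12, does not reach 0, and the widest is that of Ephx1, -0.76 to 0.35.

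Every AhR array lay below every control array for Ephx2, though the difference did not pass the adjusted test. Its log2 ratio was 0.12, -0.23, -0.21 and -0.09 on control replicates 1 to 4, and -0.62, -0.41, -0.65 and -0.28 on AhR replicates 1 to 4. The groups did not overlap, but the lowest control and the highest AhR array were only 0.05 apart, which is less than the SD of 0.09 between duplicate spots of this gene on an array. Control pools averaged -0.10 ± 0.16 and AhR pools -0.49 ± 0.18 (SD, n = 4 each). They differed by -0.39 (SE 0.12, limma unadjusted p = 0.00793, adjusted p = 1.00). The exact two-sided permutation p was 0.0286, the smallest that 4 arrays against 4 can give. Among probes, 0.56% lay wholly lower in AhR and 1.19% were apart in either direction, against 1 of the 8 members. Ephx2 ranked 17 by p among the 10004 named genes. In Cy5 alone the difference was -0.37, and in Cy3 alone, where the same RNA sat on each array, 0.02. The groups stayed apart under 5 of 6 ways of processing the signals; with median centring in place of loess 3 of the 4 AhR arrays lay below every control, and the difference was -0.32. Within the slide row that each file name gives, both rows holding 2 arrays of each group, the difference was -0.30 and -0.47.

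Ephx1, whose enzyme EPHX1 sits in the endoplasmic reticulum, showed no such separation. Its log2 ratio was -0.38, -0.66, 0.71 and -0.23 on control replicates 1 to 4, and -0.44, -0.02, -0.54 and -0.37 on the AhR replicates. The AhR values all lay inside the control range, since control replicate 3 was the highest array and control replicate 2 the lowest. Control pools averaged -0.14 ± 0.60 and AhR pools -0.34 ± 0.23 (SD, n = 4 each), which differ by -0.20 (SE 0.25, limma unadjusted p = 0.439). Without control replicate 3 the difference was 0.08, so its direction rested on that pool. Ephx1 had the largest SD within groups of the members, 0.45, above that of 97.4% of named genes. Its arrays spanned 2.59-fold, against a spot SD of 0.04. The difference between groups in Ephx2 minus Ephx1, taken within each array, was -0.18 (exact permutation p = 0.600, adjusted over 2 pairs 0.600), so the pair was not shown to differ in response.

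Gclc encodes the catalytic subunit of glutamate-cysteine ligase, which makes the first bond of glutathione. Its log2 ratio was -0.10, -0.22, -0.06 and 0.09 on the control replicates and 0.25, 0.44, 0.00 and 0.02 on the AhR replicates. AhR replicates 1 and 2 lay above every control, and AhR replicates 3 and 4 lay below control replicate 4. The means were -0.07 ± 0.13 and 0.18 ± 0.21 (SD, n = 4 each), a difference of 0.25 (SE 0.12, 95% interval -0.01 to 0.52, limma unadjusted p = 0.0601, exact permutation p = 0.114). AhR replicates 1 and 2 also had the highest ratios of Dbp, an output gene of the circadian clock, at 1.41 and 1.22. The control arrays had -1.52 to 0.32. AhR replicate 3 lay inside that range at 0.08, and AhR replicate 4 was the lowest of all arrays at -2.21. The part of the clock in the Gclc difference was not tested. Without AhR replicate 2 the Gclc difference was 0.16.

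Gclm encodes the modifier subunit that raises the activity of GCLC. It was not well above background in Cy5 or in Cy3 on any of the 8 arrays, so neither a ratio nor a group difference can be read for it. Its Cy5 median signal was 69.25 to 77.5 units, over a local background of 69.5 to 74.25, while the dimmest signal well above background lay between 72.5 and 83.5 units by array. Since 1 reading stands for the gene, this says only what this reading gave, and the planned comparison of Gclm with Gclc was not run.

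Nfe2l2 had a log2 ratio of -0.06, 0.12, 0.28 and 0.23 on the control replicates and -0.27, 0.01, 0.12 and -0.01 on the AhR replicates. AhR replicate 1 lay below every control and the other AhR arrays within their range. The difference was -0.18 (SE 0.11, 95% interval -0.44 to 0.07, limma unadjusted p = 0.139, exact permutation p = 0.171), with 0.15 ± 0.15 for the control pools and -0.04 ± 0.17 for the AhR pools (SD, n = 4 each). Keap1 had ratios of -0.26, -0.09, 0.26 and -0.33 on the control replicates and -0.04, -0.07, -0.19 and -0.10 on the AhR replicates. Its AhR arrays were tightly placed, with an SD of 0.06 against 0.27 in control, and lay inside the control range. The Keap1 difference was 0.00 (SE 0.13, limma unadjusted p = 0.974), and its 95% interval of -0.28 to 0.29 bounds a change at 1.22-fold higher or 1.21-fold lower in these ratios. Keap1 minus Nfe2l2 within an array differed between the groups by 0.19 (exact permutation p = 0.314, adjusted over 2 pairs 0.600), so sensor and factor were not shown to differ in response.

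Hmox1 encodes heme oxygenase, which opens the heme ring and is also made by macrophages that take up red cells. Its ratio, read from 10 spots per array, was -0.69, -0.17, 0.41 and -0.20 on the control replicates and 0.09, -0.25, 0.30 and -0.16 on the AhR replicates. Control replicate 1 was lowest and control replicate 3 highest, with all AhR arrays between them. The difference was 0.16 (SE 0.21, limma unadjusted p = 0.472), and -0.02 without control replicate 1. Of the 9 Kupffer cell markers, all measured, 8 had higher means in AhR and none passed the test. Their summed Cy5 signal was 36233 to 65098 units in control and 47870 to 86576 in AhR, and none was below background on every array. Their mean ratio was lowest on control replicate 1, at -0.91, and highest on AhR replicate 3, at 0.37. These were also the lowest and the second highest Hmox1 arrays. The highest Hmox1 array, control replicate 3, had a marker mean of 0.13. Control replicate 2, second highest in the markers at 0.17, had an Hmox1 ratio of -0.17. Control replicate 4 had a marker mean of -0.17. Every control array but replicate 1 lay within the AhR range of marker means, -0.30 to 0.37. The part of Kupffer cells in the Hmox1 values was not tested.

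Txnrd1 encodes the cytosolic selenoenzyme that reduces thioredoxin. Its ratio was -0.38, -0.14, 0.52 and 0.46 on the control replicates and 0.08, 0.25, 0.29 and 0.01 on the AhR replicates, all of the latter within the control range. The difference was 0.05 (SE 0.19, limma unadjusted p = 0.813). A second, dimmer Txnrd1 reading gave 0.00 (SE 0.12), and the readings disagreed by array: control replicate 4 had 0.46 in the first and -0.15 in the second. Srxn1 encodes sulfiredoxin, which restores overoxidised peroxiredoxins. Its ratio was -0.39, -0.03, 0.08 and -0.19 on the control replicates and -0.12, 0.06, -0.48 and 0.01 on the AhR replicates. The ranges overlapped nearly in full, and the difference was -0.00 (SE 0.14, 95% interval -0.31 to 0.31, limma unadjusted p = 0.996).

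For 5 of the 8 measured members, Keap1, Hmox1, Txnrd1, Srxn1 and Ephx1, the difference between groups was smaller than the SD within them. Control replicate 3 was the highest of the 8 arrays for 6 of the 8 measured members, namely Nfe2l2, Keap1, Hmox1, Txnrd1, Srxn1 and Ephx1, while it was highest for 13.7% of all named genes. Gclc was highest on AhR replicate 2 and Ephx2 on control replicate 1. Hmox1 and Txnrd1 also spread widely within groups, with SDs of 0.37 and 0.33 against a median of 0.17 over named genes. Nfe2l2, Gclc and Ephx2, with SDs of 0.16, 0.17 and 0.17, stood near that median.

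**Figure D3:**
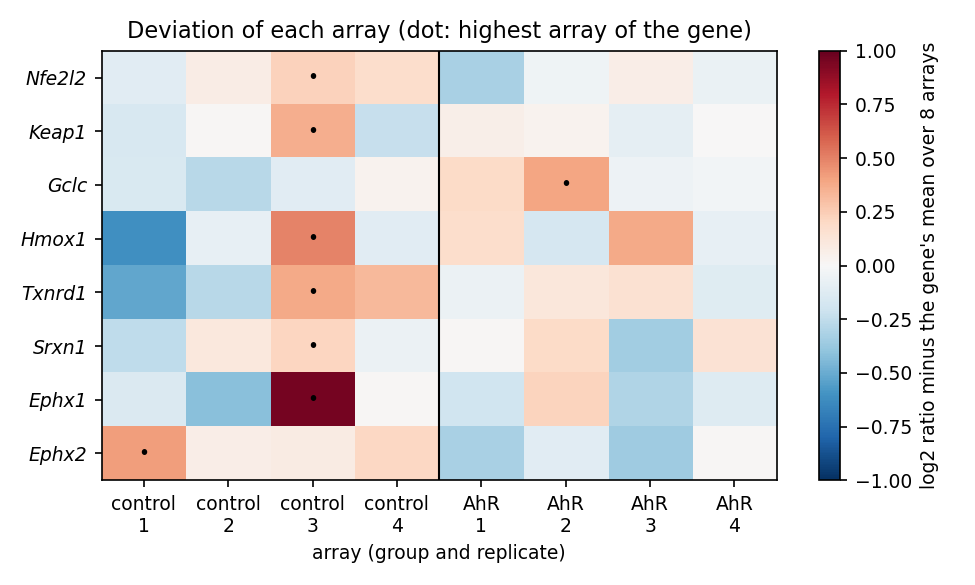
Log2 ratio of each array minus the mean of the gene over 8 arrays, in colour from -1 (blue) to 1 (red), for the 8 measured members (rows) and the 8 arrays (columns); a dot marks the highest array of each gene. Control replicate 3 carries the dot in 6 of the 8 rows.

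Members varied together only loosely over the 8 arrays. Of 28 pairs, 22 had a Pearson r above 0, with a median of 0.25, and none passed after adjustment (lowest adjusted exact permutation p = 0.487). Hmox1 with Txnrd1 gave the smallest p of r, with r = 0.72 (exact permutation p = 0.0438) and Spearman's rho of 0.55 (exact permutation p = 0.171, n = 8), adjusted p = 0.487 for r and 0.825 for rho. Without control replicates 1 and 3, the arrays farthest from the Hmox1 median, r was 0.10, so the relation rested on those arrays. Keap1 with Srxn1 had r = 0.65 (exact permutation p = 0.0798) and rho of 0.74 (exact permutation p = 0.0458, n = 8), adjusted p = 0.487 and 0.825, and r = 0.82 without control replicates 3 and 4. Hmox1 with Ephx2 ran against each other, with r = -0.66 (exact permutation p = 0.0734) and rho of -0.48 (exact permutation p = 0.243, n = 8), adjusted p = 0.487 and 0.825, and r = -0.82 without control replicates 1 and 3. Each member was also set against Dbp, which ranged from -2.21 to 1.41 over the arrays. Gclc had the largest Pearson r, 0.68 (exact permutation p = 0.0619) and rho of 0.48 (exact permutation p = 0.243, n = 8), adjusted over the 8 members p = 0.495 and 0.739, and r = 0.76 without AhR replicates 1 and 4. Its r was 0.34 within control and 0.73 within AhR, over 4 arrays each. By rank Nfe2l2 stood further from 0, with rho of -0.57 (exact permutation p = 0.151) and r = -0.56 (exact permutation p = 0.144, n = 8), adjusted p = 0.739 and 0.576, and r = -0.73 without the same arrays.

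The genes whose ratios over the 8 arrays were most like those of Ephx2, among 10003 others, were Ttc38 (Pearson r = 0.97), Papolg (0.96), Rnaseh1 (0.93), Stx2 (0.92) and Mgme1 (0.92). Their r without control replicate 1 and AhR replicate 3 ran from 0.80 to 0.96. For Ephx1 they were Jmjd8 (r = 0.97), Slco2b1 (0.97), Arsa (0.96), Zbtb43 (0.95) and Napa (0.95). Without control replicate 3 and AhR replicate 2, r fell to 0.14 for Arsa and 0.09 for Napa, and to between 0.73 and 0.77 for the other three. These are the highest of many values and carry no test.

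The pathway was read more widely from lists chosen for these roles. The lists include the measured members, whose own values enter the counts and medians. No listed gene passed the adjusted test. Of the 12 genes of sensor, factor and partners, all measured, 7 were higher and 5 lower in mean, and the median was 0.01 against -0.00 over all named genes. Nfe2l1, a relative of Nfe2l2, differed by -0.18 (SE 0.12), the small MAF gene Mafk by 0.13 (SE 0.10) and Sqstm1, whose product can displace KEAP1 from NRF2, by 0.24 (SE 0.20). Of 13 genes of glutathione synthesis and recycling, 11 were measured, 6 higher and 5 lower (median 0.08). Gss, which completes glutathione, differed by 0.12 (SE 0.13), Gpx1, a glutathione peroxidase, by -0.12 (SE 0.12) and Cth, which makes cysteine, by -0.19 (SE 0.17). Slc7a11, the cystine importer, was like Gclm not well above background on any array.

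Of 11 thioredoxin and peroxiredoxin genes, 9 were higher and 2 lower, with a median of 0.04; the mitochondrial reductase gene Txnrd2 differed by -0.11 (SE 0.11), Txnip by 0.08 and Prdx5 by 0.06. Of 7 genes of heme breakdown and ferritin, 5 were higher and 2 lower, with a median of 0.14. Ftl1, the ferritin light chain, differed by 0.17 (SE 0.10), Blvrb, a biliverdin reductase, by 0.14 (SE 0.09) and Slc40a1, the iron exporter, by 0.17 (SE 0.12). Among genes of NADPH supply, Taldo1 and Tkt, enzymes of the pentose phosphate pathway, differed by -0.14 (SE 0.10) and -0.12 (SE 0.16). Of 15 measured detoxication and export targets, 5 were higher and 10 lower (median -0.05). Gsta3 at -0.39 (SE 0.19) and the quinone reductase gene Nqo1 at -0.35 (SE 0.20) stood against Gstp1, another glutathione transferase gene, at 0.26 (SE 0.14).

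Epoxide hydrolases and epoxide-forming P450 genes had a median of -0.22, with 2 of 8 measured genes higher and 6 lower. The members Ephx1 and Ephx2 are among the 6. The P450 genes Cyp2j3, at -0.28 (SE 0.14), Cyp2c23, at -0.25 (SE 0.15), and Cyp2j4, at -0.29 (SE 0.24), are of families that form epoxy fatty acids, the substrates of EPHX2. The groups overlapped for each of these P450 genes, with exact permutation p of 0.143, 0.200 and 0.429 in that order. The 2 higher genes of the list were P450 genes as well. Only Ephx2 in this list had an unadjusted limma p under 0.05. Ephx3 and Ephx4 had too few arrays above background to be tested. Ephx2 is known as a PPARA target in rodents, and of 10 such targets set beside it 6 were higher and 4 lower (median 0.10). Cpt1a differed by 0.59 (SE 0.18), Cpt2 by 0.38 (SE 0.14) and Cyp4a2 by 0.69 (SE 0.27), in the direction opposite to Ephx2. These were the 3 of the 10 with an unadjusted limma p under 0.05, against 1.61% of all probes. The list was chosen with earlier results of these data known, so the 2 shares set side by side are no test of the list. The groups overlapped for each of these 3 genes, with exact permutation p of 0.0857, 0.114 and 0.114 in that order. Of 5 measured clock genes 4 were higher, with Dbp at 0.87 (SE 0.71), Tef at 0.48 (SE 0.25) and Bmal1 at -0.52 (SE 0.41).

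**Figure D4:**
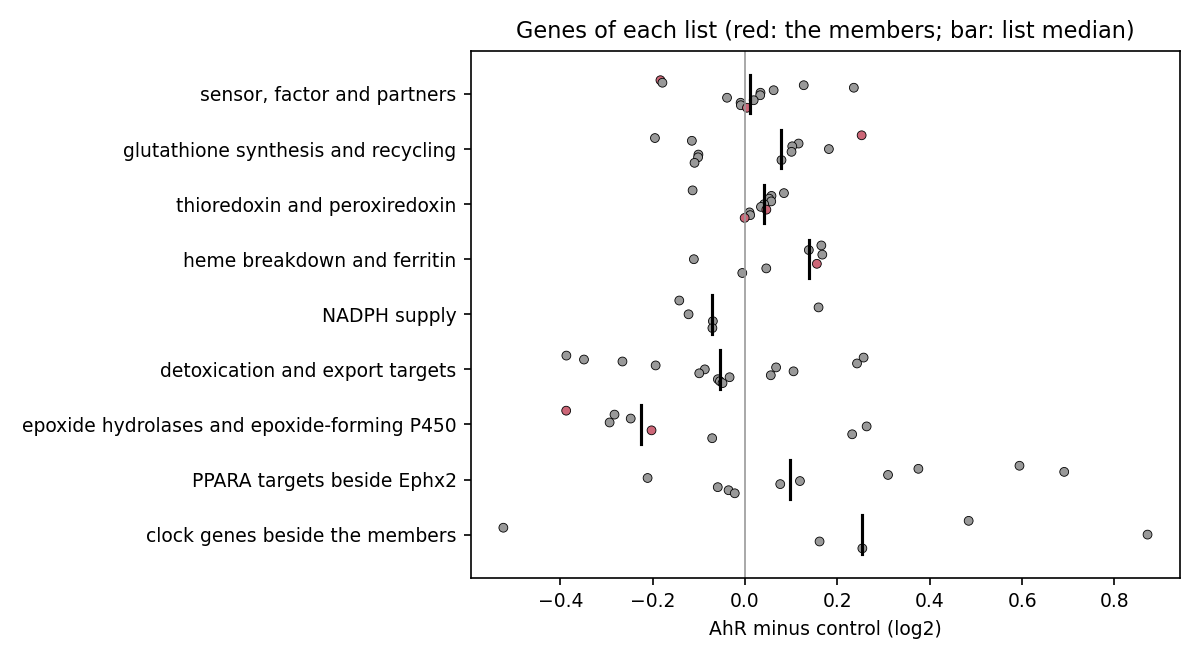
AhR minus control in log2 ratio (x axis) for each measured gene of the pathway lists (y axis), with the 8 measured members in red, other genes in grey, and a bar at the median of each list. The epoxide list has its median at -0.22 and the heme list at 0.14.

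Markers of other cell types were set beside the members. All 5 measured red cell markers had lower means in AhR (median -0.35; summed Cy5 signal 263180 to 421515 units in control and 193292 to 365234 in AhR). Control replicate 2 was the highest array for each of the 5, so they do not count as separate evidence. Their mean ratio was 0.44 on that pool and -0.87 to -0.75 on the other controls. AhR replicate 2, at -0.37, lay above those other controls, and AhR replicate 1 had -0.87. AhR replicates 3 and 4 lay below every control. The share of control replicate 2 in the red cell difference was not tested. All 5 measured endothelial markers had higher means (median 0.21), as did 6 of 7 stellate cell markers (median 0.10), 4 of 5 cholangiocyte markers (median 0.10) and 2 of 4 lymphocyte markers (median 0.01). Hepatocyte markers were higher for 3 and lower for 5 of 8 (median -0.05). None passed the adjusted test, and the part of any cell type in the member values was not tested.

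**Figure D5:**
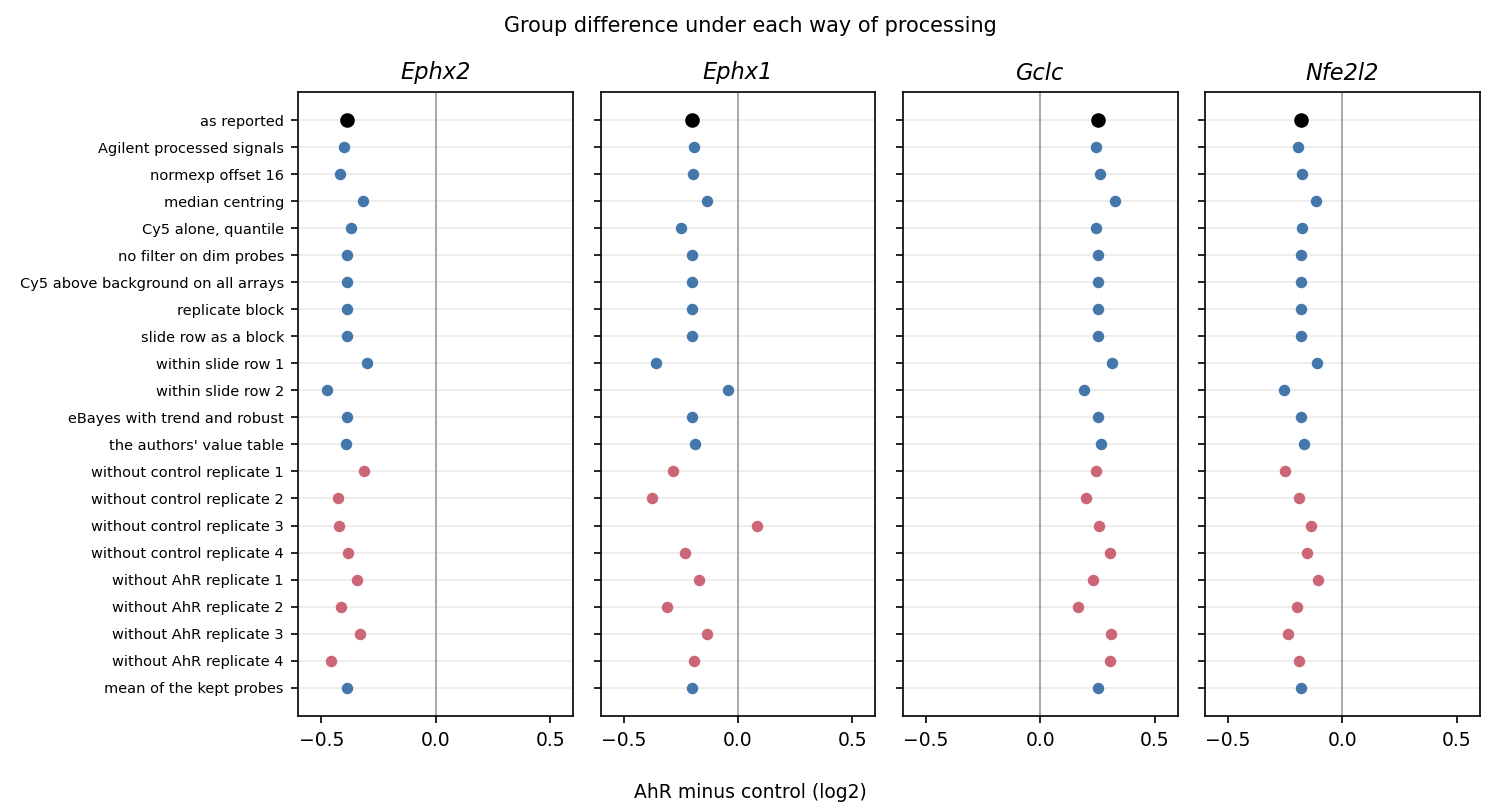
AhR minus control (log2, x axis) for Ephx2, Ephx1, Gclc and Nfe2l2 under each way of processing (y axis): black as reported, blue with another processing, block or slide row, red with 1 array left out. Ephx2 stays below 0 between -0.47 and -0.30, and Ephx1 crosses 0 only without control replicate 3.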

How the data were processed

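Per the file headers, the deposited intensity values are median pixel brightnesses of each spot and its local background, from Agilent Feature Extraction 10.7.3.1. A column of ratios on the log10 scale is also in these deposited files and was not used. How the authors made their value table, which holds log2 values, is not given in the sources used here; its columns followed the log2 ratios computed here (r of 0.990 to 0.994 over 17859 probes, slope 1.02 to 1.04, column medians 0.01 to 0.02), so its direction is Cy5 over Cy3, while its exact scale and centring are unknown.

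Signals went through normexp background correction (offset 50) and within-array loess (limma 3.58.1, R 4.3.3), with control and outlier spots at weight 0. Probes with Cy5 well above background on at least 4 of 8 arrays were kept, 17859 of 30367; 2 of these lacked a value on some array. RefSeq accessions of the probes, without versions, were matched to a RefSeq table of assembly GRCr8, which named 18004 probes. No coordinates of the probes are given, since the array design follows build rn4.

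Groups were compared with limma (lmFit, eBayes, Benjamini-Hochberg over all kept probes), with exact two-sided permutation tests over the arrays. The limma step was tested on simulated data, with changes larger than any member difference here and noise independent between probes. That run does not bear on differences of the size reported. All 8 arrays were on 1 slide and in 1 scan. The number of arrays limits the precision. The 9 genes and all lists were chosen with earlier results of these data known. Genes named were the 9, the 3 of smallest p among the others in each list, the 5 most like Ephx2 (the member of smallest p) and Ephx1 (of largest SD), and Dbp. Slc7a11, Ephx3, Ephx4 and Alb were named outside this rule, after their values were seen. A gene that the rule names is not reported here. Same-numbered arrays of the groups did not deviate together (r of -0.37 to 0.05 over probes), so the numbers were not taken as pairs.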

Additional observations from a re-analysis of the deposited data

How the results depend on the processing

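No probe was called under any alternative (limma): background correction, normalization, Cy5 alone, filter, block, variance model, the authors' value table, each slide row or each array left out, with 172 to 817 probes at an unadjusted p under 0.05. With the replicate block limma called 0 probes, 251 at an unadjusted p under 0.05, and it changed no call. Ephx2, Gclc and Nfe2l2 kept their direction under each alternative: Ephx2 ran from -0.46 to -0.31 with 1 array left out, Gclc from 0.16 to 0.31 and Nfe2l2 from -0.25 to -0.10. The unadjusted limma p of Ephx2 was at most 0.0526 under other processing, reached with median centring, 0.138 within slide row 1, and at most 0.0273 with 1 array left out. That of Gclc was 0.0476 with no filter and 0.0487 with a trend and robust variance model, but 0.156 with median centring, 0.113 with the replicate block, 0.142 and 0.323 within slide rows 1 and 2, and 0.0362 to 0.186 with 1 array left out. The differences of Keap1, Hmox1, Txnrd1, Srxn1 and Ephx1 changed sign under some alternative, and the cause was not tested. Keap1 was -0.024 with Agilent processed signals, -0.0031 with Cy5 alone and -0.086 within slide row 1. Srxn1 was 0.021 with Agilent processed signals, 0.0029 with an offset of 16, 0.081 with median centring, 0.028 with Cy5 alone, 0.012 in the authors' value table and 0.19 within slide row 1. Hmox1 was -0.066 within slide row 1 and 0.38 within slide row 2 (limma unadjusted p = 0.0482). With 1 array left out the range was -0.072 to 0.13 for Keap1, -0.022 to 0.35 for Hmox1, -0.12 to 0.18 for Txnrd1, -0.086 to 0.11 for Srxn1 and -0.37 to 0.082 for Ephx1. Median centring moved the median difference of all kept probes to 0.04, from -0.01. Signal over background limits Gclm, whose ratios are of signals not above background and are not given.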
